A study of Homo sapiens with 32 samples.

Results

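The genes described here are the IL-6 family of cytokines and receptors with its main signalling genes: the ligand genes IL6, IL11, LIF and CLCF1, the receptor genes IL6R, IL6ST, LIFR and OSMR, the transcription factor gene STAT3 and the feedback inhibitor gene SOCS3. They were chosen by symbol, 10 genes in all, and 9 of them were measured, of 19775 genes on the array. CLCF1 had no probe set under its symbol and was not analysed here. The 9 measured genes have 30 probe sets, between 1 and 7 each. The probe set with the highest mean stands for its gene. Where a gene has others, the main differences are also given for those, or for the mean of its probe sets.

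Cytokines of this family signal through IL6ST (gp130), a receptor chain that they share. IL-6 and IL-11 first bind their own receptor chains, IL6R and IL11RA, while LIF and oncostatin M bring IL6ST together with LIFR or OSMR. The assembled receptor activates JAK kinases, which phosphorylate STAT3, and STAT3 induces SOCS3, which binds the receptor and shuts the signal down. In lung tumours IL-6 is known as a product of the cancer cells and of the stroma, and STAT3 as a factor that is often active.

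The lines were A549, a human lung adenocarcinoma line, and H460a, a human large cell lung carcinoma line that the series text calls H460; that text also gives the compound under another code. Each line was given RO4929097 at 2 µM for 6 h, RO4929097 at 2 µM for 24 h, vehicle for 6 h or vehicle for 24 h, with 4 arrays in each of the 8 groups and 32 in all. RO4929097 inhibits gamma-secretase, the protease that releases the active part of Notch receptors and also cuts other membrane proteins. All groups share plating at low density, a night of rest before dosing, and culture as a single cell line with no stroma. Nothing in the labels states that the replicates were separate cultures, and the p-values therefore cover only the spread among these arrays, which can be technical.

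The values are log2 intensities, and differences are log2 differences ± the standard error (SE) from limma over all 8 groups. Precision is limited by the 4 arrays of a group, with a median SE of 0.0874 for a difference of 2 groups. A gene passed where its p-value was under 0.05 after Benjamini-Hochberg adjustment for 19775 genes. Mean intensity lay between 468 and 496 in the 4 A549 vehicle arrays at 6 h. A549 cells given RO4929097 for 6 h had mean intensities of 496, 531, 589 and 583 on arrays 1 to 4, while the remaining 24 arrays had 570 to 613. H460a vehicle array 3 at 6 h had a beta-actin 3' probe set 2.19 above the 5' one, against 0.14 to 0.42 in the other arrays. Probe sets of 14 genes of other tissues, assumed not to be expressed in either line, had an upper quartile of 7.30. A group mean under that is called near the background here. Their highest mean was 8.72, so a mean between these levels is not surely above the background. That highest mean is of CD14 alone (8.80 in A549 and 8.63 in H460a), and whether the lines express CD14 was not tested. KRT18, an epithelial keratin, was at 14.7 in A549 and 13.8 in H460a, and 4 of 6 epithelial markers lay above 7.30 in each line. EPCAM (5.60) was the lowest in A549 and CDH1 (4.57) in H460a. Of 6 leukocyte markers 2 lay above 7.30 in each line, with PTPRC at 5.27 in A549 and 5.20 in H460a. Of 4 endothelial markers 1 lay above in A549 and 0 in H460a, and of 5 fibroblast markers 1 in A549 and 3 in H460a, with COL1A1 the highest (9.26 and 9.18). HES1, a Notch target gene that serves as the check of the inhibitor, was at 8.0 with RO4929097 and 9.63 with vehicle in A549 at 6 h, a difference of -1.63. At 24 h it was at 7.80 with RO4929097 and 9.99 with vehicle (-2.18). In H460a HES1 was near the background in every group and differed by -0.35 at 6 h and -0.29 at 24 h (adjusted p = 0.324 and 0.823).

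In A549 cells IL11 was lower and IL6R higher with RO4929097 than with vehicle at 24 h. At 6 h IL6R, IL6ST, SOCS3 and STAT3 were higher with RO4929097 and IL6 was lower, in a comparison where inhibitor arrays 3 and 4 had clearly higher mean intensities than the vehicle arrays. In H460a cells no member passed at either time. Between the lines, H460a had far more IL6, LIFR and SOCS3 transcript, and A549 had more IL11 and STAT3. IL6ST was also higher in A549 by the probe set used, and its other probe sets pointed both ways. By the probe sets used here, IL6R, IL6ST, LIFR, OSMR, STAT3 and SOCS3 were higher at 24 h than at 6 h of culture in vehicle in both lines. A lower level in a culture can mean fewer cells with the transcript or less of it per cell, and these cannot be told apart here.

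**Figure D1:**
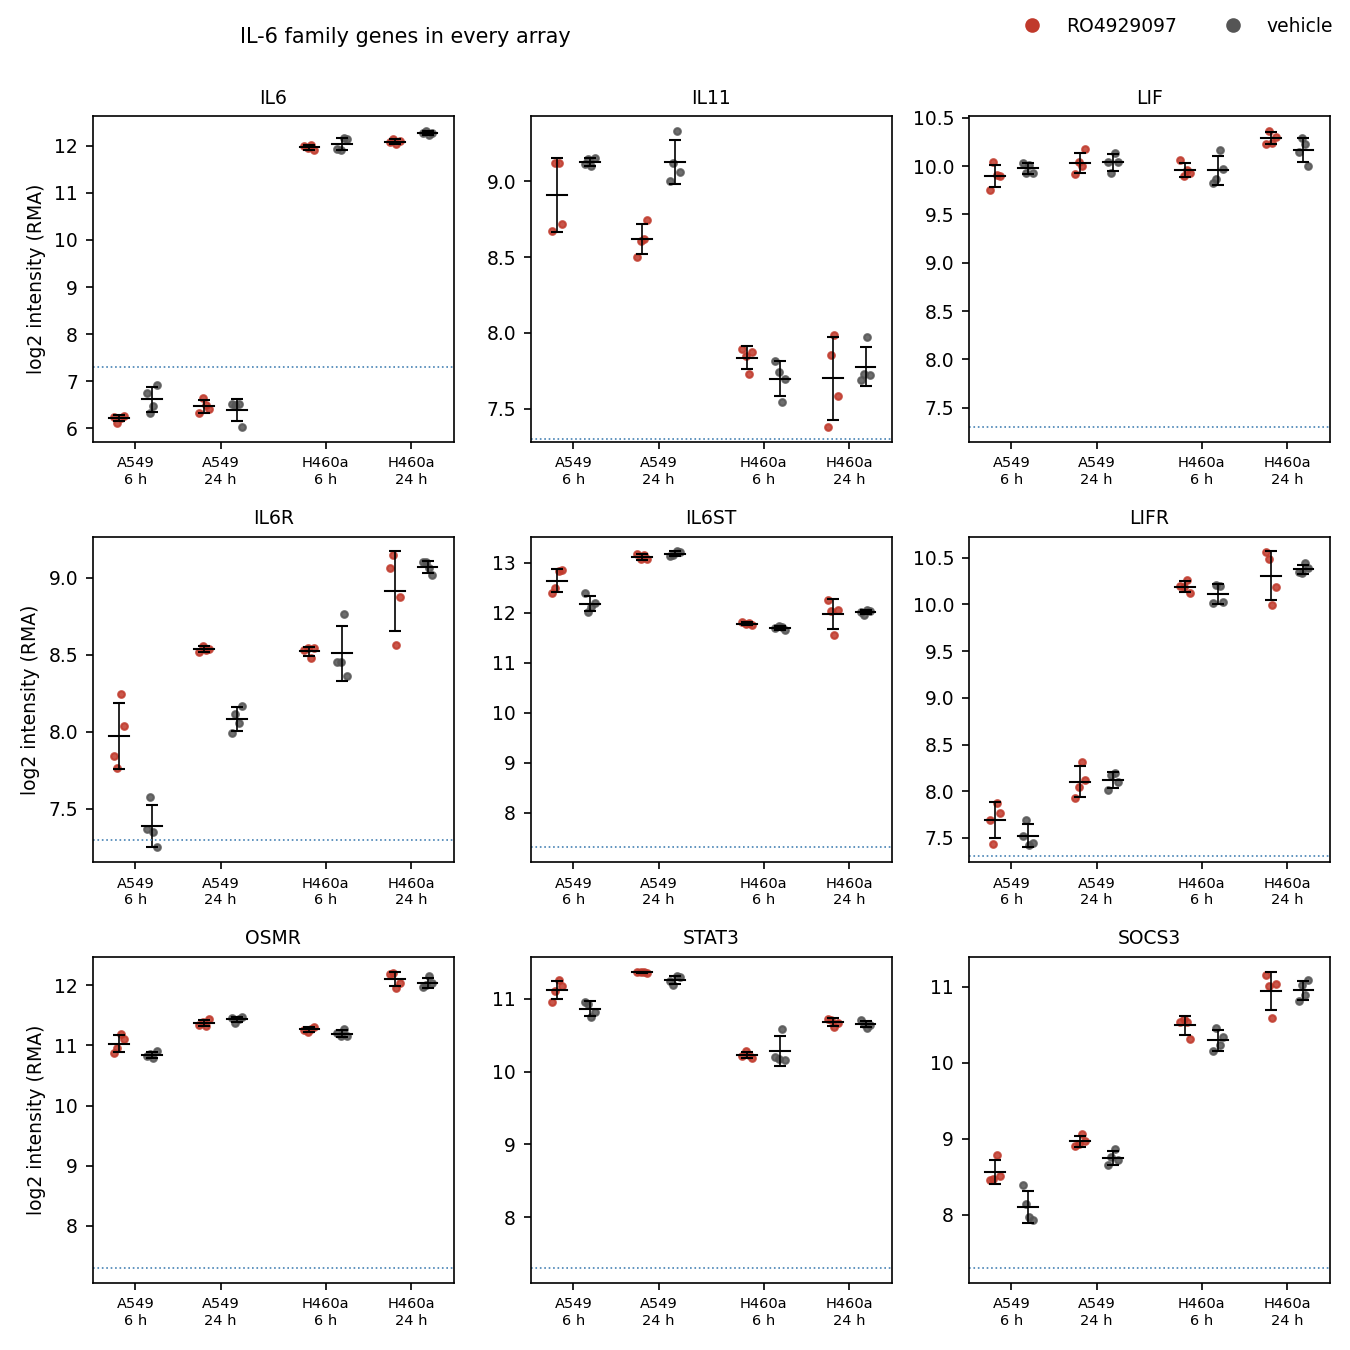
Log2 intensity of the 9 measured members in every array, by line, treatment and time. Points are arrays, bars are the mean and SD of 4 arrays, and the dotted line is the background level of 7.30. IL6 lies under that line in all A549 groups and at about 12 in all H460a groups.

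The ligand gene IL11 was the member that fell at 24 h in A549. IL11 is a cytokine induced by TGF-beta and AP-1 factors in epithelial and stromal cells, and its gene lies on chromosome 19 at chr19:55364382-55370463 (GRCh38.p14). Of the 4 A549 arrays given RO4929097 for 24 h, IL11 read 8.50, 8.61, 8.62 and 8.74, against 9.00, 9.12, 9.33 and 9.06 in the vehicle arrays. All 4 inhibitor arrays lay below all 4 vehicle arrays. The means were 8.62 ± 0.10 with RO4929097 and 9.13 ± 0.14 with vehicle (SD, n = 4 each), a difference of -0.51 ± 0.11 (SE; 95% confidence interval -0.73 to -0.30; 1.43-fold lower; limma, adjusted p = 0.00374). The inhibitor mean lay between 7.30 and 8.72, where a probe set is not surely above the background, so the size can be a lower limit. At 6 h the A549 arrays read 8.67, 9.12, 9.12 and 8.72 with RO4929097, against 9.11, 9.15, 9.10 and 9.15 with vehicle. Arrays 1 and 4 of the inhibitor group were low, arrays 2 and 3 lay among the vehicle arrays, and the difference of -0.22 ± 0.11 did not pass (adjusted p = 0.169).

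The other IL11 probe set, 206924_at, showed a wider range. With RO4929097 for 24 h its A549 arrays read 8.98, 8.86, 9.94 and 9.86, against 10.89, 10.38, 10.91 and 9.95 with vehicle. The groups did not overlap, but the highest inhibitor array and the lowest vehicle array nearly touched. The difference was -1.12 ± 0.24 (2.17-fold lower; limma over 54613 probe sets, adjusted p = 0.0104), with means of 9.41 ± 0.57 with RO4929097 and 10.53 ± 0.46 with vehicle. At 6 h the same probe set read 9.11, 10.21, 10.46 and 9.75 with RO4929097, against 10.53, 10.51, 10.56 and 10.15 with vehicle, and did not pass (-0.55 ± 0.24, adjusted p = 0.18). Both IL11 probe sets were thus lower with RO4929097 at 24 h, by 1.43-fold and 2.17-fold.

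**Figure D2:**
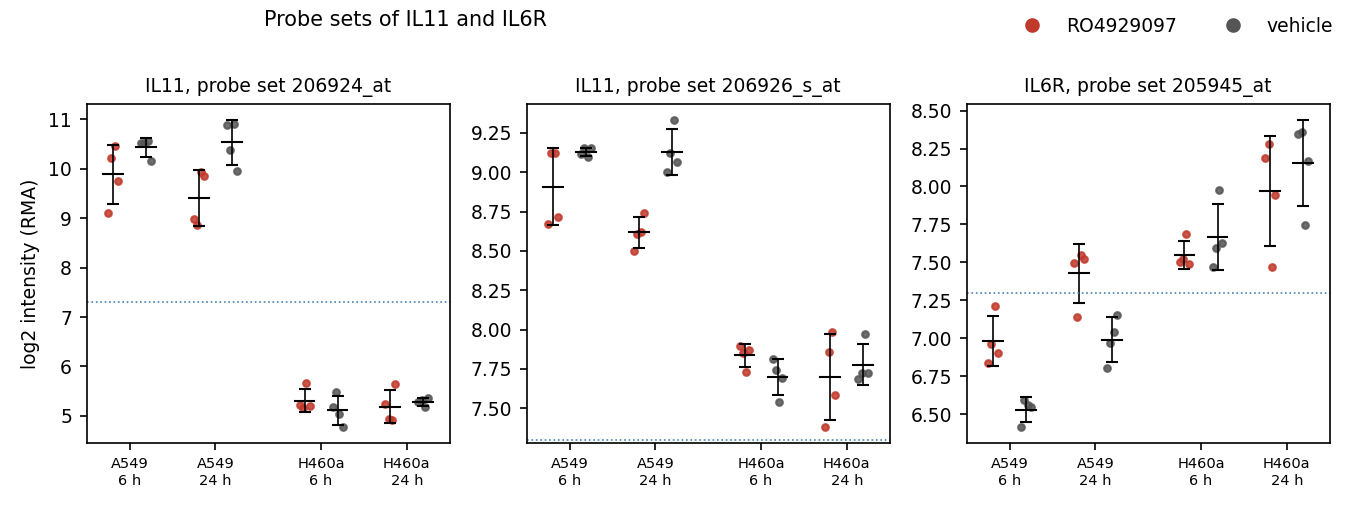
Log2 intensity of the second IL11 probe set, of the IL11 probe set used for the gene, and of a second IL6R probe set, in every array with mean and SD of 4 arrays. Both IL11 probe sets lie lower with RO4929097 than with vehicle in A549 at 24 h, and 206924_at lies near the background in H460a.

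The promoters of IL11 and IL6R are shown because these are the members that passed at 24 h. Each run gives 250 bases before and 50 after the RefSeq start of the gene (GRCh38.p14), on the gene's own strand, with the match to the AP-1 motif TGANTCA in capitals. IL11 is at chr19:55370414-55370713 on the minus strand, and the match starts 96 bases before the start. IL6R is at chr1:154405093-154405392 on the plus strand, and the match starts at base 37 after it.
IL11: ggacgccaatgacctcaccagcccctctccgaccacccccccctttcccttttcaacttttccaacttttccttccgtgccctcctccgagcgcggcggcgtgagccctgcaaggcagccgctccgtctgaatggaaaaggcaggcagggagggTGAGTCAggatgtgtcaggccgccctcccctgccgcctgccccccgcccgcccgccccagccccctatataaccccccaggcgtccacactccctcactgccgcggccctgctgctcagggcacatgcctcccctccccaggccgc
IL6R: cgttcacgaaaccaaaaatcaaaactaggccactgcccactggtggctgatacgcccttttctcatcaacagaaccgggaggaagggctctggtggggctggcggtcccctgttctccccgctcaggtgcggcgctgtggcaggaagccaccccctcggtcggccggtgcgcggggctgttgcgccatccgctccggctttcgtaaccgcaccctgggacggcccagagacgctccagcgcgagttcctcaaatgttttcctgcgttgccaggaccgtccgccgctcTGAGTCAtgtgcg
Promoters were found for 8 of the 10 members, and LIF and CLCF1 had no entry. Of these 8, IL11, IL6R and OSMR held TGANTCA on either strand, against 7.71% of 35116 promoters of 300 bases. TTCNNNGAA, the STAT motif, was found in LIFR alone (TTCCTTGAA), against 7.66% of all promoters. The LIFR window, chr5:38595356-38595655 on the minus strand, lies inside the gene, whose RefSeq span runs to 38608403. It is thus at an internal start and not at the outer start of the gene. GTGGGAA, the motif of the Notch cofactor RBPJ, was found in 0 of 8, against 6.25%. No member promoter held matches to more than 1 of these motifs, and a match is a run of letters, not a site shown to be bound.

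The ligand gene IL6 encodes the cytokine that names the family and lies at chr7:22727200-22731998. In A549 it was near the background in all 4 groups, so the sizes of its differences carry little information. At 6 h it read 6.24, 6.12, 6.22 and 6.27 with RO4929097, against 6.74, 6.33, 6.47 and 6.92 with vehicle. The inhibitor arrays all lay below the vehicle arrays, and the difference was -0.40 ± 0.10 (adjusted p = 0.0106). At 24 h it read 6.32, 6.63, 6.50 and 6.40 with RO4929097, against 6.52, 6.49, 6.51 and 6.03 with vehicle, and the difference of 0.08 ± 0.10 did not pass (adjusted p = 0.856). IL6 was far above the background in H460a. There it averaged 11.97 ± 0.05 with RO4929097 and 12.04 ± 0.13 with vehicle at 6 h, and 12.09 ± 0.05 with RO4929097 and 12.28 ± 0.04 with vehicle at 24 h (SD, n = 4 each). At 24 h the H460a arrays read 12.08, 12.15, 12.04 and 12.09 with RO4929097, against 12.27, 12.32, 12.23 and 12.28 with vehicle. The groups did not overlap, yet the difference of -0.18 ± 0.10 did not pass (limma, adjusted p = 0.903, 95% confidence interval -0.39 to 0.02). This SE and interval rest on a spread shared by all 8 groups. The SDs in A549 vehicle (0.27 at 6 h and 0.24 at 24 h) were wider than in these 2 H460a groups. With the arrays of this comparison fitted alone, 0 of 19775 genes passed.

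LIF, which encodes leukemia inhibitory factor and lies at chr22:30240453-30246759, was at about the same level everywhere. Its group means lay between 9.90 and 10.29 in both lines. RO4929097 minus vehicle was -0.08 ± 0.075 in A549 at 6 h and -0.01 ± 0.075 at 24 h, and 0.00 ± 0.075 in H460a at 6 h and 0.12 ± 0.075 at 24 h. None passed, and in A549 at 24 h the 95% confidence interval ran from -0.16 to 0.15.

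The receptor gene IL6R encodes the chain that binds IL-6 and lies at chr1:154405343-154469450. It was higher with RO4929097 in A549 at both times. Its A549 group means lay between 7.30 and 8.72, the range in which a probe set is not surely above the background. At 24 h its arrays read 8.52, 8.56, 8.53 and 8.54 with RO4929097, against 7.99, 8.12, 8.06 and 8.17 with vehicle. The inhibitor arrays lay within a narrow band above every vehicle array, and the difference was 0.45 ± 0.099 (95% confidence interval 0.25 to 0.66; 1.37-fold; adjusted p = 0.00657). At 6 h they read 7.84, 7.77, 8.25 and 8.04 with RO4929097, against 7.37, 7.58, 7.35 and 7.25 with vehicle. The groups were again apart, by 0.59 ± 0.099 (1.5-fold; adjusted p = 0.00112). In H460a the arrays at 24 h read 9.06, 9.15, 8.56 and 8.88 with RO4929097, against 9.10, 9.10, 9.06 and 9.02 with vehicle. Here the groups overlapped, array 3 of the inhibitor group was the lowest, and the difference was -0.16 ± 0.099 (adjusted p = 0.925). At 6 h it was 0.01 ± 0.099 in H460a (adjusted p = 0.982).

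IL6R has 2 further probe sets. 205945_at was near the background in 3 of the 4 A549 groups and read 7.50, 7.14, 7.55 and 7.52 with RO4929097 at 24 h, against 6.80, 6.97, 7.04 and 7.15 with vehicle. Array 2 of the inhibitor group lay at the level of the highest vehicle array, and the difference of 0.44 ± 0.14 did not pass over all probe sets (adjusted p = 0.167). At 6 h it differed by 0.45 ± 0.14 and passed (adjusted p = 0.0495). The remaining probe set, 217489_s_at, was near the background and differed by 0.05 at 6 h and 0.09 at 24 h, without passing.

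IL6ST encodes gp130, the shared signalling chain, and lies at chr5:55935095-55994963. Its group means ran from 11.70 to 13.18. In A549 at 6 h it read 12.40, 12.49, 12.83 and 12.85 with RO4929097, against 12.39, 12.02, 12.12 and 12.20 with vehicle. Arrays 3 and 4 of the inhibitor group, the brighter arrays of that group, were the highest, and array 1 lay just above the highest vehicle array. The difference was 0.46 ± 0.10 (adjusted p = 0.00575). Of its other 6 probe sets none passed at 6 h over all probe sets, with 212196_at at 0.33 ± 0.11 (adjusted p = 0.0786). At 24 h the A549 arrays read 13.18, 13.07, 13.15 and 13.07 with RO4929097, against 13.13, 13.15, 13.23 and 13.21 with vehicle, and did not differ beyond their spread (-0.06 ± 0.10, adjusted p = 0.889). In H460a the differences were 0.08 ± 0.10 at 6 h and -0.04 ± 0.10 at 24 h by the probe set used. At 6 h 204864_s_at differed by -0.56, 211000_s_at by -0.49 and 204863_s_at by -0.39, without passing (limma, adjusted p = 0.409, 0.465 and 0.415). Vehicle array 3, with the beta-actin difference of 2.19, was the highest vehicle array on each of these. The remaining probe sets lay between -0.05 and 0.08 at 6 h. At 24 h its other probe sets lay between -0.35 and -0.02.

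LIFR, the receptor chain of LIF (chr5:38474668-38608403), and OSMR, that of oncostatin M (chr5:38846012-38945579), did not pass in any RO4929097 comparison. In A549 at 6 h OSMR read 10.87, 10.96, 11.19 and 11.11 with RO4929097, against 10.82, 10.86, 10.79 and 10.91 with vehicle (0.19 ± 0.065, adjusted p = 0.0559). Arrays 3 and 4 were again the highest. LIFR differed by 0.17 ± 0.099 at 6 h (adjusted p = 0.27) and by -0.02 ± 0.099 at 24 h in A549. At 6 h its other 4 probe sets ran from 0.59 ± 0.19 (225571_at, adjusted p = 0.0648) to -0.19 ± 0.075 (229185_at, adjusted p = 0.123). By the probe sets used, the other OSMR and LIFR differences lay between -0.07 and 0.08 in both lines. In H460a at 24 h LIFR 225571_at differed by -0.44, 205876_at by -0.26 and 227771_at by -0.25, without passing (adjusted p = 0.806, 0.819 and 0.787). These are the 3 of 30 member probe sets at an unadjusted p under 0.05 there, as 5.88% of all probe sets. The other OSMR probe sets lay between -0.15 and 0.19 in H460a, without passing.

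STAT3 encodes the transcription factor of the pathway (chr17:42313324-42388442). In A549 at 6 h it read 10.95, 11.10, 11.26 and 11.17 with RO4929097, against 10.96, 10.93, 10.74 and 10.82 with vehicle. Array 1 of the inhibitor group lay below the highest vehicle array, so the groups overlapped, and the difference was 0.26 ± 0.074 (adjusted p = 0.021). At 24 h it read 11.36, 11.37, 11.36 and 11.36 with RO4929097, against 11.24, 11.19, 11.31 and 11.30 with vehicle. These groups were apart but close, and the difference of 0.10 ± 0.074 did not pass (adjusted p = 0.669). The probe sets of STAT3 did not move as one at 6 h: 208992_s_at differed by 0.20 ± 0.071 (adjusted p = 0.0936) and 225289_at by -0.15 ± 0.28 (adjusted p = 0.831).

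SOCS3 encodes the feedback inhibitor that STAT3 induces (chr17:78356778-78360925). In A549 at 6 h it read 8.46, 8.47, 8.79 and 8.51 with RO4929097, against 8.39, 8.14, 7.97 and 7.93 with vehicle. The groups did not overlap, and the difference was 0.45 ± 0.10 (adjusted p = 0.00718). Both means, 8.56 with RO4929097 and 8.11 with vehicle, lay between 7.30 and 8.72, where a probe set is not surely above the background. Its other 3 probe sets did not pass at 6 h: 206359_at differed by 0.29 ± 0.17, 214105_at by 0.07 ± 0.11 and 206360_s_at by -0.06 ± 0.18 (adjusted p = 0.366, 0.786 and 0.902). At 24 h the probe set used read 8.90, 8.93, 9.07 and 8.97 with RO4929097, against 8.65, 8.77, 8.87 and 8.72 with vehicle, apart by a small gap and not past the threshold (0.21 ± 0.10, adjusted p = 0.424). In H460a at 6 h SOCS3 differed by 0.19 ± 0.10, the lowest adjusted p of the members there (0.488), and at 24 h by -0.01 ± 0.10.

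**Figure D3:**
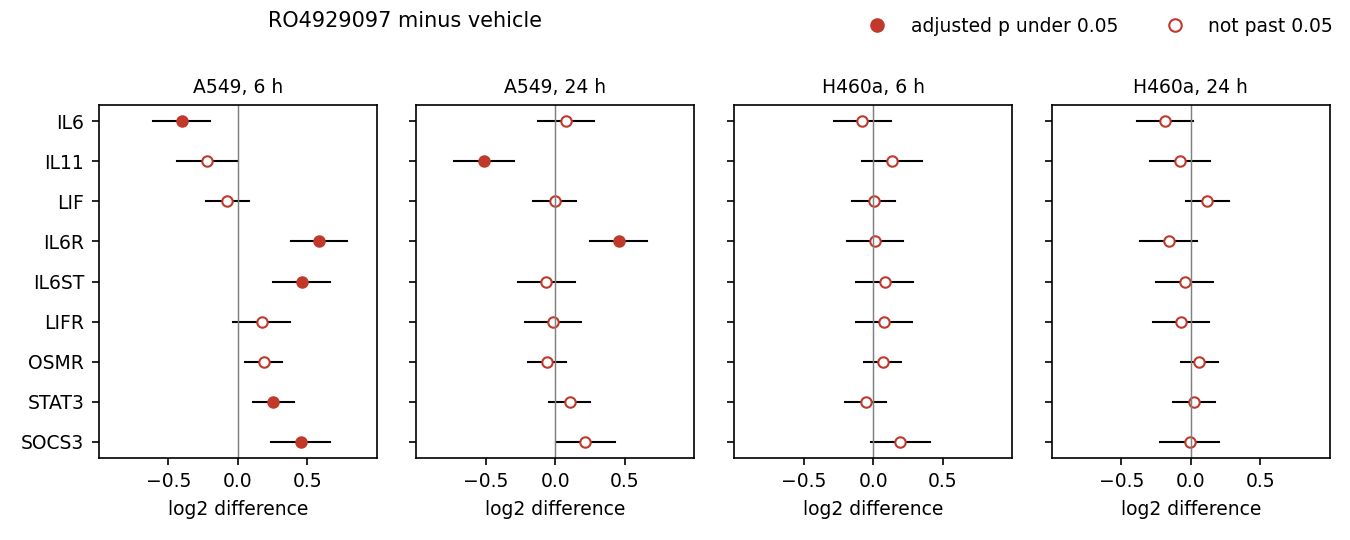
Log2 difference, RO4929097 minus vehicle, of each member with its 95% confidence interval from limma, in both lines at 6 and 24 h. Filled points passed the threshold of 0.05. IL11 (-0.51) and IL6R (0.45) are the filled points in A549 at 24 h, 5 members are filled in A549 at 6 h, and none in H460a.

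Counted over the members, 4 of 9 were higher and 1 of 9 lower in A549 at 6 h, where 11.6% of all genes were higher and 1.51% lower. Their median difference was 0.19, against 0.021 over all genes. With quantile normalization over all arrays 2 were higher (IL6R at 0.59 and SOCS3 at 0.39) and 1 lower (IL6 at -0.39), while IL6ST (0.20) and STAT3 (0.08) did not pass. With the mean of a gene's probe sets IL6R (0.36) and IL6 passed, and IL6ST (0.22), SOCS3 (0.19) and STAT3 (0.10) did not. Without the brighter inhibitor arrays 3 and 4, none of the 9 passed (IL6R 0.42, SOCS3 0.36, IL6ST 0.26, STAT3 0.16 and IL6 -0.43), and over all genes the count was 10 in place of 2600. That fit has 2 inhibitor arrays in place of 4. IL6 also did not pass without inhibitor array 3 or without vehicle array 4, SOCS3 without inhibitor array 3, IL6ST without inhibitor array 3 or 4, and STAT3 without any one of the inhibitor arrays 3 and 4 and the vehicle arrays 3 and 4. IL6R passed with any single array left out. The part of array brightness in the other differences was not tested. For 4 of the 9 members, IL6, IL6R, IL6ST and SOCS3, the inhibitor and vehicle arrays did not overlap, as for 12.5% of all genes.

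In A549 at 24 h 1 of 9 members was higher and 1 of 9 lower, where 1.32% of all genes were higher and 0.885% lower. The median difference of the members was -0.0062, against 0.0070 over all genes. IL11, IL6R, SOCS3 and STAT3 were the 4 members whose arrays did not overlap, as for 12.2% of all genes. IL11 and IL6R passed with any single array left out, and also under both quantile normalizations. With the mean of a gene's probe sets IL11 passed and IL6R, at 0.33, did not (adjusted p = 0.0657).

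In H460a 0 of 9 members passed with limma at 6 h, where 0.0961% of all genes passed, and 0 of 9 at 24 h, where 0.00506% passed. At an unadjusted p under 0.05 the count was 0 of 9 at both times, where 11.1% and 5.79% of all genes lay under it at 6 and 24 h. With probe sets tested singly, 6 of 30 passed in A549 at 6 h (5.61% of all probe sets) and 3 of 30 at 24 h (1.07%). In H460a 0 of 30 passed at 6 h (0.0421% of all; 4 at an unadjusted p under 0.05, as 11% of all probe sets) and 0 of 30 at 24 h (0% of all; 3 unadjusted, as 5.88% of all).

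The difference of the inhibitor effect between the lines was tested as a contrast of its own. At 24 h the effect on IL6R was 0.45 in A549 and -0.16 in H460a, and these differed by 0.61 ± 0.14 (limma, adjusted p = 0.0295). This was 1 of 9 members, where 0.637% of all genes passed. It passed in 21 of 32 fits that each leave out 1 array, and the adjusted p ran up to 0.159 over the other alternatives. With probe sets tested singly 0 of 30 passed (4 at an unadjusted p under 0.05, as 7.85% of all probe sets; 0.245% of all passed), and the IL6R probe set used here had an adjusted p of 0.0572. The effect on IL11 was -0.51 in A549 and -0.08 in H460a, and the difference of -0.44 ± 0.15 did not pass (adjusted p = 0.274). At 6 h 0 of 9 passed, where 0.121% of all genes did. IL6R, at 0.57 ± 0.14, had the lowest adjusted p (0.0805), and 5 of 9 had an unadjusted p under 0.05, as did 14.9% of all genes.

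The effect at 24 h minus that at 6 h was tested within each line. In A549 2 of 9 passed, where 3.71% of all genes did. IL6ST had an effect of -0.06 at 24 h and 0.46 at 6 h, a difference of -0.53 ± 0.14 (adjusted p = 0.0374), and IL6 one of 0.08 at 24 h and -0.40 at 6 h, a difference of 0.48 ± 0.14 (adjusted p = 0.0497). Neither passed with either quantile normalization or without the brighter inhibitor arrays 3 and 4 at 6 h. IL6 was past the threshold in 6 of 32 fits that leave out an array, and IL6ST in 21 of 32. In H460a 0 of 9 passed, where 0.0101% of all genes did, with 0 at an unadjusted p under 0.05 (7.62% of all genes).

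Culture time was compared in the vehicle arrays. In A549 vehicle cells 6 of 9 members were higher at 24 h than at 6 h and none lower, where 29.2% of all genes were higher. These contrasts share the vehicle arrays with the inhibitor comparisons above. The 6 h arrays are the ones with the lower mean intensity. IL6ST read 13.13, 13.15, 13.23 and 13.21 at 24 h, against 12.39, 12.02, 12.12 and 12.20 at 6 h. The groups were far apart, with a difference of 1.00 ± 0.10 (2-fold; adjusted p = 3.83e-09), and it was 0.57 with quantile normalization over all arrays. The other IL6ST probe sets gave less: 204863_s_at differed by 0.54 and 212196_at by 0.51, both past the threshold over all probe sets, and the remaining 4 lay between -0.14 and 0.12. IL6R differed by 0.70 ± 0.099, SOCS3 by 0.65 ± 0.10, LIFR by 0.60 ± 0.099, OSMR by 0.59 ± 0.065 and STAT3 by 0.40 ± 0.074. The probe sets of SOCS3 and LIFR pointed both ways. For SOCS3, 206359_at differed by 0.26 and 206360_s_at by -0.24, and neither passed. For LIFR, 225571_at (0.70) and 205876_at (0.33) passed as higher, 229185_at (-0.23, adjusted p = 0.0175) passed as lower and 227771_at (-0.13) did not pass. With the mean of a gene's probe sets SOCS3 was at 0.18 and did not pass (adjusted p = 0.205). The other 5 passed under that setting at smaller sizes: OSMR 0.40, IL6R 0.32, STAT3 0.31, IL6ST 0.29 and LIFR 0.25. With quantile normalization over all arrays OSMR was at 0.28, STAT3 at 0.08 and no longer past the threshold, and LIF at -0.20 and past it. The ligand genes did not pass with the values as deposited: IL6 differed by -0.23 ± 0.10 (adjusted p = 0.0607), LIF by 0.06 ± 0.075 and IL11 by 0.00 ± 0.11.

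In H460a vehicle cells 7 of 9 members were higher at 24 h than at 6 h and none lower, where 15.1% of all genes were higher. OSMR read 11.98, 12.00, 12.16 and 12.03 at 24 h, against 11.20, 11.15, 11.27 and 11.15 at 6 h. The groups were well apart (0.85 ± 0.065, 1.8-fold, adjusted p = 3.73e-12). SOCS3 differed by 0.66 ± 0.10, IL6R by 0.56 ± 0.099, STAT3 by 0.37 ± 0.074, IL6ST by 0.32 ± 0.10, LIFR by 0.27 ± 0.099 and LIF by 0.21 ± 0.075. The 4 H460a vehicle arrays at 6 h had the mean intensity of the later ones, and the differences with quantile normalization over all arrays were 0.83 for OSMR, 0.68 for SOCS3 and 0.55 for IL6R. With the mean of a gene's probe sets IL6ST did not pass (-0.01, adjusted p = 0.974), while OSMR (0.84), IL6R (0.43), STAT3 (0.38), SOCS3 (0.35), LIFR (0.34) and LIF (0.21) did. IL6 (0.23 ± 0.10, adjusted p = 0.0789) and IL11 (0.08 ± 0.11) did not pass.

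The lines differed in which members they carried. In vehicle, over both times, 8 of 9 members differed between A549 and H460a, 3 higher and 5 lower in A549, where 28.8% of all genes were higher and 27.9% lower. IL6 averaged 6.62 and 6.39 in A549 at 6 and 24 h, against 12.04 and 12.28 in H460a. All A549 arrays lay far below all H460a arrays (-5.66 ± 0.071, 50.5-fold lower, adjusted p = 1.39e-35), and since A549 was near the background the size is a lower limit. LIFR was 5.37-fold lower in A549 (-2.43 ± 0.070), SOCS3 4.57-fold lower (-2.19 ± 0.074), IL6R 2.08-fold lower (-1.06 ± 0.070) and OSMR 1.39-fold lower (-0.48 ± 0.046). In A549 vehicle LIFR averaged 7.52 and 8.12 at 6 and 24 h, SOCS3 8.11 and 8.75, and IL6R 7.39 and 8.08. Apart from SOCS3 at 24 h these lie between 7.30 and 8.72, so the sizes for these 3 genes can be lower limits. IL6ST was 1.77-fold higher in A549 (0.83 ± 0.071) and STAT3 1.51-fold higher (0.60 ± 0.052). The size for IL6ST rests on the probe set: 212196_at (0.57) and 204863_s_at (0.44) also passed as higher, 204864_s_at (-0.32) and 211000_s_at (-0.18) pointed the other way without passing, and the mean of its 7 probe sets differed by 0.18 (adjusted p = 0.0483). With such means SOCS3 differed by -1.10, LIFR by -1.91, IL6R by -0.91, OSMR by -0.33 and STAT3 by 0.59, all past the threshold. LIF did not differ beyond its spread (-0.06 ± 0.053, adjusted p = 0.402).

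For IL11 the size of the line difference depended on the probe set. The one used for the gene averaged 9.13 at both times in A549, against 7.70 and 7.78 in H460a, a difference of 1.39 ± 0.075 (2.62-fold). Both H460a means lay between 7.30 and 8.72, so this size can be a lower limit. 206924_at averaged 10.44 and 10.53 in A549, against 5.12 and 5.28 in H460a, where it was near the background. Its difference was 5.29 ± 0.17 (39-fold, a lower limit, adjusted p = 3.46e-23 over all probe sets). Both put IL11 higher in A549, and where the probes of each set lie in the gene was not analysed here.

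**Figure D4:**
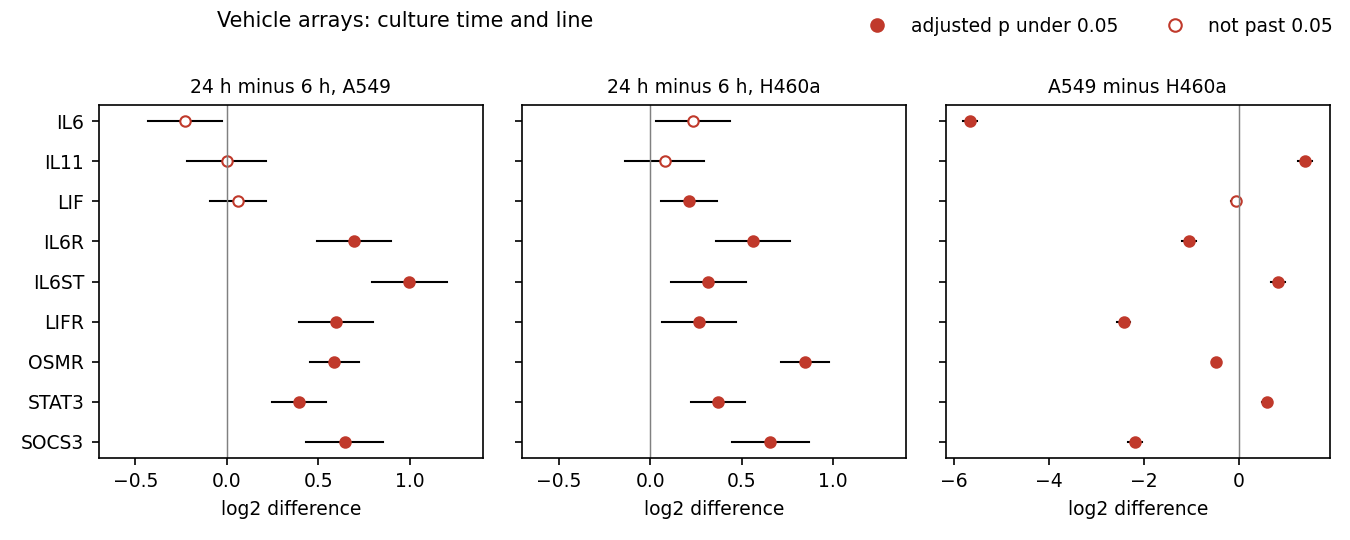
Log2 differences of the members with 95% confidence intervals: 24 h minus 6 h in vehicle for each line, and A549 minus H460a in vehicle over both times. Filled points passed the threshold of 0.05. IL6 is lowest in A549 relative to H460a (-5.66), and of the probe sets plotted IL6ST (1.00) in A549 and OSMR (0.85) in H460a have the highest time differences.

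The other genes of the pathway were counted in lists written from general knowledge. Of 9 measured further ligands and receptors of the family, 0 passed in A549 at 6 h (3 at an unadjusted p under 0.05, as 27.9% of all genes) and 0 at 24 h (2 unadjusted, as 11.6% of all genes). The counts that follow stand against 11.6% of all genes higher and 1.51% lower in A549 at 6 h, and 1.32% higher and 0.885% lower at 24 h. At 6 h the shares of inhibitors, targets and AP-1, NF-kB and TGF-beta genes that were higher lie near that background. Of all genes named from these lists as past the threshold at 6 h, JUNB alone also passed without the brighter inhibitor arrays 3 and 4. Of 13 JAK, STAT and adaptor genes 4 were higher in A549 at 6 h. They were the phosphatase gene PTPN11 (0.30), the adaptor genes SHC1 (0.28) and GRB2 (0.27), and STAT6 (0.24), a transcription factor of the IL-4 pathway. None of these 4 passed with quantile normalization over all arrays, where they lay between 0.01 and 0.11. At 24 h 0 of 13 passed, and 6 had an unadjusted p under 0.05, as did 11.6% of all genes. With either quantile normalization 1 gene of this list passed as lower at 24 h. The median of this list at 24 h was 0.066, against 0.0070 over all genes. The sheddase genes ADAM17 (0.31) and ADAM10 (0.28), whose products release IL6R from the cell surface, were both higher at 6 h and passed neither with quantile normalization (0.16 and 0.06) nor at 24 h.

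Of 14 inhibitors of JAK and STAT signalling, 2 were higher in A549 at 6 h, SOCS4 (0.43) and SOCS6 (0.35), and 2 were lower at 24 h, SOCS5 and SOCS2. SOCS5, a regulator of cytokine and growth factor receptors, averaged 10.49 ± 0.023 with RO4929097 and 11.00 ± 0.049 with vehicle at 24 h (-0.51 ± 0.072, adjusted p = 2.00e-05). SOCS2, which restrains growth hormone signalling, averaged 8.30 ± 0.065 with RO4929097 and 8.78 ± 0.15 with vehicle (-0.48 ± 0.10, adjusted p = 0.00386). Both also passed under both quantile normalizations, and of the 6 h calls SOCS4 did (0.34 over all arrays) and SOCS6 did not (0.23). Without inhibitor arrays 3 and 4 SOCS4 was at 0.27 and did not pass (adjusted p = 0.61). The median of the list was -0.023 at 24 h, against 0.0070 over all genes.

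Of 27 acute phase and STAT3 target genes 4 were higher and 1 lower in A549 at 6 h, and 2 were higher and 1 lower at 24 h. JUNB, an AP-1 subunit, was the one that was lower at both times. It averaged 9.46 ± 0.077 with RO4929097 and 10.17 ± 0.096 with vehicle at 6 h (-0.71 ± 0.066), and 9.88 ± 0.023 with RO4929097 and 10.70 ± 0.092 with vehicle at 24 h (-0.81 ± 0.066, adjusted p = 3.91e-10). FGG, the gene of the fibrinogen gamma chain, was higher at 24 h, at 11.63 ± 0.065 with RO4929097 and 11.09 ± 0.12 with vehicle (0.53 ± 0.11, adjusted p = 0.00332). BCL6, a transcriptional repressor, was 0.28 higher at both times, though not with quantile normalization at 6 h (0.15). CEBPD, a factor of the acute phase response, was 0.40 higher at 6 h, and 0.24 and past the threshold with quantile normalization over all arrays. Without inhibitor arrays 3 and 4 it was at 0.26 and did not pass (adjusted p = 0.54). CEBPB (0.30) and TIMP1 (0.22) also passed at 6 h as deposited but not with that normalization, where TIMP1 turned to -0.09. The median of the list was 0.086 at 6 h and -0.041 at 24 h, against 0.021 and 0.0070 over all genes.

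Of 21 genes of the AP-1, NF-kB and TGF-beta pathways, called inducers here, 3 were higher and 2 lower in A549 at 6 h. At 24 h 0 were higher and 3 lower. These pathways are known to induce family members, but NFKBIA, TNFAIP3 and SMAD7 in the list restrain them. The counts thus mix opposite roles. JUNB stands in this list too. SMAD7, an inhibitor of TGF-beta signalling, averaged 8.36 ± 0.17 with RO4929097 and 9.09 ± 0.19 with vehicle at 24 h (-0.73 ± 0.14, adjusted p = 0.00143). SMAD3, a transcription factor of that pathway, differed by -0.30 ± 0.072 at both times. At 6 h it was at -0.48 with quantile normalization over all arrays, and at -0.39 and not past the threshold without inhibitor arrays 3 and 4 (adjusted p = 0.0786). NFKBIA (0.48), JUND (0.37) and SMAD2 (0.22) were higher at 6 h as deposited, and none of them passed with quantile normalization. In H460a 0 genes of any of these lists passed. At an unadjusted p under 0.05 the counts there at 6 h were 1 of 9 further ligands and receptors, 0 of 13 JAK, STAT and adaptor genes, 2 of 14 inhibitors, 4 of 27 targets, 8 of 21 inducers and 0 of 2 sheddases. Of all genes 11.1% lay under that limit. At 24 h the counts were 0, 1, 1, 2, 2 and 0 in the same order, with 5.79% of all genes.

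Genes whose levels ran most like those of a member were found by Pearson's r over the 32 arrays, after each line's mean was subtracted. These points share their culture times, treatments and array brightness, so the values are descriptions. IL11 was most like HES1 (r = 0.72), followed by PADI2 (0.70), an arginine deiminase gene, and JAG2 (0.67), a Notch ligand gene. For IL6R these were MEGF9 (0.96), GET1 (0.95) and GNAI1 (0.94). MEGF9 differed by 0.47 between RO4929097 and vehicle in A549 at 24 h, while GET1 differed by 0.12 and GNAI1 by 0.10. IL6ST was most like SLC25A43 (0.97), TWSG1 (0.97) and AHR (0.97), STAT3 most like ZKSCAN1, ARSD and LGALS8 (all 0.96), and SOCS3 most like GLCE (0.93), GBE1 (0.92) and SNX14 (0.92). For IL6 the highest r was 0.57, with HPGDS.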

How the data were processed

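Biotin-labelled RNA of 32 samples was measured on Affymetrix arrays. The deposited values are intensities on a linear scale for 54675 probe sets, a scale inferred from their range. Per the submitters' processing notes the authors used RMA, whose software and version the sources used here do not give. The deposited intensities were log2-transformed here without further scaling. The log2 scale therefore comes from this step and not from the authors. After leaving out 62 control probe sets, 1801 with several symbols and 11721 with no gene, the probe set with the highest mean stood for each of 19775 genes (10523 had several). Symbols came from GEO's platform annotation, coordinates and promoters from RefSeq (GRCh38.p14).

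Group means of all 8 groups were fitted with limma 3.58.1 in R 4.3.3 (lmFit, eBayes), and contrasts taken between them, with Benjamini-Hochberg adjustment within a contrast and a threshold of 0.05. A further fit tested 54613 probe sets singly. Figures used matplotlib 3.10.9. The steps were tested on simulated data. Samples were grouped by their titles, and no column was left out. Named genes are the 10 members, HES1, up to 4 genes past the threshold from each pathway list (TIMP1 and SMAD2, outside this rule, were added after their values were seen), and for each called member the 3 genes most like it among those at or above the median level. The members and lists were chosen with earlier results of these data known. Alternatives were the arrays fitted, a filter on dim genes, the handling of probe sets, 3 scalings, the variance model, array weights, a replicate block, a minimum difference, and arrays left out. Leaving out 3 arrays together, and other settings for the lists, were added after seeing the data. The sample descriptions mention embryos, which no other label does, and this was disregarded.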

Additional observations from a re-analysis of the deposited data

Results flagged for a closer look

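In 5 of the 72 groups of 4 arrays formed by the 9 members, 1 array lay far from the other 3, where chance gives about 1 in 20. IL6 read 6.03 in A549 vehicle array 4 at 24 h, against 6.49 to 6.52 in the others, all near the background. IL11 read 7.97 in H460a vehicle array 3 at 24 h, against 7.69 to 7.73. SOCS3 read 8.79 in A549 RO4929097 array 3 at 6 h, against 8.46 to 8.51, and this is one of the brighter arrays of its group. SOCS3 also read 10.31 in H460a RO4929097 array 4 at 6 h, against 10.54 to 10.57. STAT3 read 10.59 in H460a vehicle array 3 at 6 h, against 10.16 to 10.20. That array has the beta-actin 3' to 5' difference of 2.19, and on it the STAT3 probe set 225289_at read 7.21, against 8.03 to 8.81 in the other 3.

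In the main fit the effect of RO4929097 differed between groups for 3 members. For IL6R at 24 h it was 0.61 higher in A549 than in H460a. In A549 the effect at 24 h minus that at 6 h was 0.48 for IL6 and -0.53 for IL6ST. With 1 array left out, the IL6R contrast passed in 21 of 32 fits, that of IL6 in 6 and that of IL6ST in 21. None of them passed with the mean of a gene's probe sets, and IL6 was near the background in A549.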

How the results depend on the processing

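The 5 members past the threshold in A549 at 6 h became 1 with the comparison's arrays alone or a difference of at least 0.58 required, 2 with the mean of a gene's probe sets, 3 with either quantile normalization, and 0 without RO4929097 arrays 3 and 4 or without these and H460a vehicle array 3 at 6 h; with 1 array left out they were 1 to 6. The 2 members in A549 at 24 h became 1 with the mean of probe sets and 0 with a difference of at least 0.58, and stayed at 2 with any array left out. The effect difference between lines at 6 h (0 members) became 1 with dim genes left out, either quantile normalization, eBayes with trend and robust, or array weights (0 to 2 with 1 array left out). At 24 h (1 member) it became 0 with the mean of probe sets, the replicate block or probe sets tested singly (0 to 1). The change of the effect with time in A549 (2 members) became 1 with the comparison's arrays or each line fitted alone, and 0 with the mean of probe sets, centring, either quantile normalization, the replicate block, a difference of at least 0.58, the 2 or 3 arrays left out, or probe sets tested singly (0 to 3). The 7 members higher at 24 h in H460a vehicle became 2 with a difference of at least 0.58 (5 to 8), and the 6 in A549 were 5 to 7 over all settings. There SOCS3 did not pass with the mean of probe sets, and STAT3 did not with a difference of at least 0.58 or either quantile normalization. With the mean of probe sets IL6ST was -0.0074 in H460a over time, and LIF in A549 over time was -0.20 (-0.1983) with quantile normalization over all arrays and -0.20 (-0.1981) within lines, against 0.06. The cause of these changes was not tested. Same-numbered arrays correlated at -0.35 to 0.32 in their deviations. This range does not settle whether the numbers pair the arrays, and the main fit did not pair them. With the replicate block STAT3 in A549 at 6 h did not pass, and 1775 genes passed there in place of 2600. Over all genes that count was 557 (265 higher) and 442 (208 higher) with quantile normalization over all arrays and within lines, against 2301 higher of 2600. The arrays give no detection calls, so levels near 7.30 are limits.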
